A study of Mus musculus with 4 samples.

Results

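The insulin-like growth factor (IGF) axis was followed across vascular smooth muscle cell (VSMC) states in 2 mouse models, atherosclerotic plaque and the ligated carotid artery. The members were 8 rows taken by gene symbol, the binding proteins Igfbp2, Igfbp3, Igfbp4, Igfbp5, Igfbp6 and Igfbp7, the ligand Igf1 and the receptor Igf1r, and all 8 were listed in each library among 31765 genes in plaque and 26391 or 27696 in ligation. The study profiled single cells by droplet 3' RNA sequencing in 4 libraries, 1 per group. In plaque, Myh11-CreERt2/Confetti/ApoE-/- mice (ApoE-/-, 1502 cells) were compared with Myh11-CreERt2/Confetti/Sm22a-Trf2T188A/ApoE-/- mice (Trf2T188A/ApoE-/-, 929 cells). In the ligated carotid, collected 28 days after ligation, wild type control mice (4967 cells) were compared with SM22a-TRF2T188A mice (Trf2T188A, 5392 cells).

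All mice were C57Bl/6 adults. Both plaque groups lacked ApoE, were fed a high fat diet and carried a Confetti reporter that tamoxifen switches on in Myh11-expressing VSMCs, and the plaques came by dissection from aorta and carotid. The transgene is a mutant of the telomere protein TRF2 driven by a minimal Sm22a promoter, which is active in VSMCs. The ligated arteries came from male littermates, and their adventitia was removed before digestion. The number of mice behind each library was not given in the sources used here, so no value below has a replicate, no test across animals was possible, and each interval is a 95% interval that covers counting error only. Genotype and library cannot be told apart.

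IGF1 signals through a receptor tyrosine kinase, IGF1R, to promote growth and survival of many cells, VSMCs included. Secreted binding proteins hold IGFs in plasma and in the matrix, and proteases free them again. Several of the binding proteins also act without IGF, and IGFBP7 binds IGFs only weakly and is known as a secreted matrix protein of vessels and of senescent cells.

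The libraries held 24064570 to 37869934 unique molecular identifiers (UMIs) in plaque and 47713453 to 67426588 in ligation. The median cell held 22765.5 and 24377 UMIs in the ApoE-/- and Trf2T188A/ApoE-/- libraries, and 8631 and 11153 in the control and Trf2T188A ligation libraries. Levels are given as the mean number of UMIs per 10000 UMIs of a cell, a scale used here to compare a gene between cell states rather than with another gene. Terf2, the gene of TRF2, was at 0.189 in ApoE-/- and 0.180 in Trf2T188A/ApoE-/- cells and at 0.180 and 0.164 in the ligation libraries, and whether transcripts of the transgene were counted in this row is not given in the sources used here. A reporter UMI was found in 1255 of 1502 and 793 of 929 plaque cells. The ligation libraries shared 10 cell barcodes.

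Cells were grouped by clustering without the IGF axis genes and named from marker lists, those of the plaque and ligation states having been taken from the study's own tables on the same libraries. In plaque these were 4 contractile clusters (699 ApoE-/- and 306 Trf2T188A/ApoE-/- cells together), Itih4-like cells (226 and 168), fibromyocyte-like cells (158 and 127), complement-like cells expressing C3 and Cp (111 and 81), chondrocyte-like cells (81 and 63), Dmd Nav2-like cells (84 and 103), immediate early cells (66 and 27) and Adamtsl1-like cells (43 and 53). A fibroblast-like cluster held 21 ApoE-/- cells and 1 Trf2T188A/ApoE-/- cell, and a cluster of 13 ApoE-/- cells met the same fibroblast list with 8 of 10 markers and 1 in its top 10 genes. Since it came from 1 library, the latter is called here by its leading gene, the Gpx3 cluster. In ligation, remodelling cells (2042 control and 1879 Trf2T188A) expressing Eln, Postn and Fn1, contractile cells (1568 and 2284), de-differentiated cells (1158 and 1044) and interferon-responding cells (117 and 62) were joined by endothelial-like (62 and 65) and myeloid-like cells (20 and 58). The 8 contractile smooth muscle markers summed to 503 in control and 513 in Trf2T188A remodelling cells, to 432 and 450 in the ligation cells named contractile, which were thus not the highest in them, and to 27.4 in control endothelial-like cells, and in plaque their lowest sum was 6.64 in the chondrocyte-like cells of ApoE-/-.

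The binding proteins were not spread alike over these states. Igfbp2 was highest in remodelling cells of the ligated artery, Igfbp3 in endothelial-like cells and in the Gpx3 cluster of plaque, and Igfbp4 in that cluster and in complement-like cells. In ApoE-/- plaque Igfbp5 and Igfbp6 were also highest in the Gpx3 cluster, and in ligation Igfbp5 was highest in contractile and de-differentiated cells. Igfbp7 had a UMI in nearly every smooth muscle cell, Igf1 had its highest levels in fibroblast-like and myeloid-like cells, and Igf1r was spread over all states. A gene and cluster pair was counted as marked when the level was at least 0.5 higher on the log2 scale (pseudocount of 1) than in the other cells of the experiment. In plaque 15 of 75 pairs of a detected member and a cluster were marked, where 2.4% of such pairs over all genes were, and in ligation 5 of 32, where 3.43% were. Most of the marked plaque pairs were in the small fibroblast-like and Gpx3 clusters, nearly all of whose cells came from ApoE-/-. A member low in most cells, such as Igfbp3, could count as detected through the cluster in which it was high, so the counts support no conclusion. These are descriptions of clusters that the same cells defined.

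**Figure D1:**
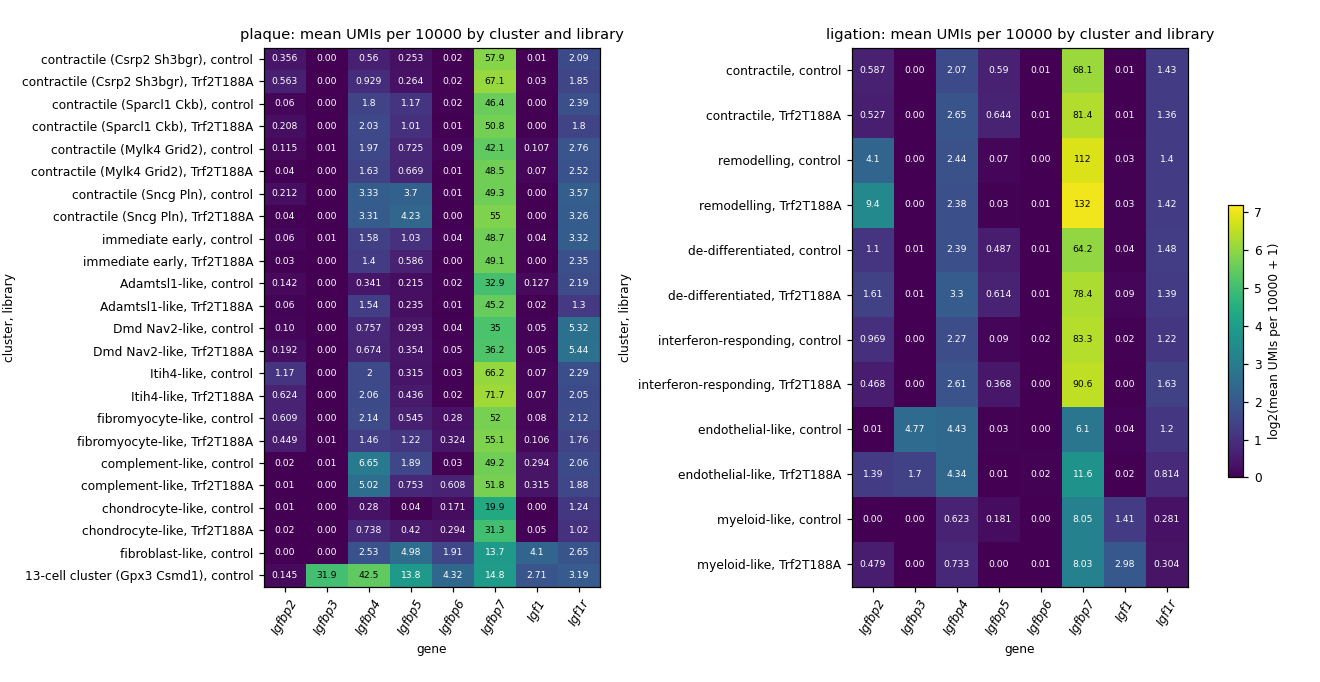
Mean level of the 8 members, in UMIs per 10000, in each cluster and library (rows), control in plaque being ApoE-/-, with colour on a log2(level + 1) scale. Igfbp7 was high in the smooth muscle clusters of all 4 libraries, while Igfbp2 stood out in remodelling cells of the ligated carotid, at 4.10 in control and 9.40 in Trf2T188A cells.

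Igfbp2, a binding protein with a higher affinity for IGF2 than for IGF1, marked the remodelling state. Its level there was 4.10 in control cells (interval 4.01 to 4.19) and 9.40 in Trf2T188A cells (9.28 to 9.52), from 9209 and 26360 UMIs. Contractile cells held 0.587 in control and 0.527 in Trf2T188A, and de-differentiated cells 1.10 and 1.61. Remodelling cells were above the other cells of their own library, by 1.51 on the log2 scale in control and by 2.48 in Trf2T188A. They made up 41.1% of the control and 34.8% of the Trf2T188A cells, and held 78.3% and 85.3% of the summed Igfbp2 level.

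The level of Igfbp2 in remodelling cells was carried by a minority of them. A UMI was found in 41.8% of control cells (interval 39.6 to 43.9) and 47.3% of Trf2T188A cells (45.0 to 49.6), the median cell was at 0 in both libraries, and the highest cells reached 166 and 416 UMIs per 10000. Cells over 20 UMIs per 10000 numbered 121 in control (5.93%) and 223 in Trf2T188A (11.9%), and they held 54.4% and 79.8% of the level. The libraries differed more in the height of the top cells than in the share of cells with the transcript. Endothelial-like cells, for comparison, held Igfbp2 UMIs in 1 of 62 control and 8 of 65 Trf2T188A cells, with median depths of 10407 and 14166 UMIs.

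Between genotypes, Igfbp2 in remodelling cells was higher in Trf2T188A by 1.03 on the log2 scale (interval 0.998 to 1.06). A member was counted as past the limit between genotypes when its log2 ratio was over 0.25 in either direction among genes detected in 10% or more of the class in one library or the other. In remodelling cells 1.47% of genes were past it upwards and 0.747% downwards, and Igfbp2 was the only one of 4 members tested that was. The difference of the mean log2 value per cell was much smaller, at 0.34. When remodelling cells were divided at 1.5 times the resolution, Igfbp2 was at 2.31 in control and 6.73 in Trf2T188A cells of one cluster and at 6.60 and 14.3 in the other, log2 ratios of 1.22 and 1.01. Other matrix genes moved in the same cells, Lum from 1.18 to 3.41 and Dcn from 0.253 to 1.01, and their part in the result was not tested. The 9 genes of the adventitial fibroblast list that were measured summed to 0.257 in control and 0.264 in Trf2T188A remodelling cells.

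The cells with most Igfbp2 were often cells with a transcript of Cdkn2a, the locus of the cell-cycle inhibitor p16 and a marker of senescence. A Cdkn2a UMI was found in 183 control (8.96%) and 251 Trf2T188A (13.4%) remodelling cells. In control, Igfbp2 was at 13.9 in cells with a Cdkn2a UMI and at 3.13 in cells without, a log2 ratio of 1.85 (interval 1.79 to 1.91). In Trf2T188A the values were 34.2 and 5.57, a log2 ratio of 2.42 (2.39 to 2.46). The share of cells with an Igfbp2 UMI was 75.4% against 38.5% in control and 75.7% against 42.9% in Trf2T188A, so it was alike in the 2 genotypes among cells with Cdkn2a, whereas their levels were not.

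Cells with a Cdkn2a UMI were deeper, with medians of 11248 against 8554 UMIs in control and 14553 against 10533 in Trf2T188A. With every cell thinned to 5000 UMIs, Igfbp2 was at 15.8 against 3.57 in control and at 36.9 against 7.33 in Trf2T188A, and the log2 ratios were 1.88 and 2.19. Igfbp2 exceeded 80 UMIs per 10000 in 6 of 183 control and 40 of 251 Trf2T188A cells with Cdkn2a, and in 0 of 1859 and 23 of 1628 cells without. The genotype difference was present on both sides of the split, by 1.24 on the log2 scale in cells with and by 0.67 in cells without Cdkn2a. With thinned cells these values lay closer together, at 1.18 and 0.87. Cdkn2a status was read again after thinning, with a UMI left in 99 control and 133 Trf2T188A cells. Cells that lost theirs counted as without, so the 2 sides of the split were no longer the same cells. Igfbp7, by contrast, was at 127.8 against 110.2 in control and at 141.0 against 130.2 in Trf2T188A, a far smaller difference between cells with and without Cdkn2a.

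**Figure D2:**
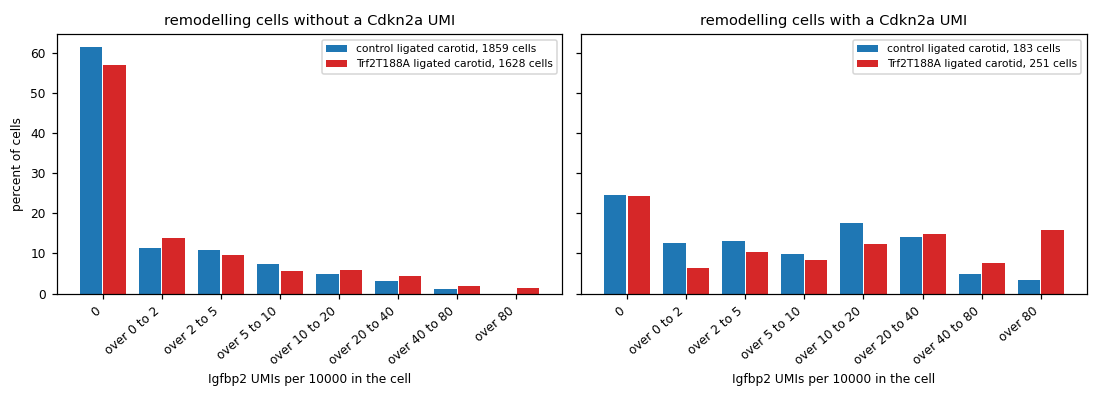
Share of remodelling cells (percent) in each range of Igfbp2 level (UMIs per 10000 in the cell), for cells without and with a Cdkn2a UMI, in control and Trf2T188A ligated carotids. In the range over 80, cells with Cdkn2a made up 3.28% in control and 15.9% in Trf2T188A.

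Outside remodelling cells the log2 ratio of Igfbp2 between cells with and without Cdkn2a was smaller in both ligation libraries. De-differentiated cells held 3.20 with and 0.94 without a Cdkn2a UMI in control, and 2.19 and 1.54 in Trf2T188A, and the 16 Trf2T188A contractile cells with Cdkn2a held 4.87 against 0.50. In plaque, where the fibromyocyte-like state was the one with most such cells, Igfbp2 was at 1.43 in 31 ApoE-/- cells with and 0.41 in 127 without, and at 0.99 in 35 Trf2T188A/ApoE-/- cells with and 0.24 in 92 without. Igfbp4 went the other way in those cells, at 1.93 with and 2.19 without in ApoE-/- and at 0.83 and 1.70 in Trf2T188A/ApoE-/-. In ligation Igfbp4 was instead higher with Cdkn2a. De-differentiated cells held 5.54 with and 3.01 without in Trf2T188A, and 2.48 and 2.38 in control. Remodelling cells held 3.01 and 2.38 in control, and 2.77 and 2.31 in Trf2T188A.

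In plaque Igfbp2 was at far lower levels, and which state held most of it depended on the clustering. The Itih4-like cells, an intermediate state that also expressed Wnt16 and Fgl2, held 1.17 in ApoE-/- and 0.624 in Trf2T188A/ApoE-/-, against 0.609 and 0.449 in fibromyocyte-like cells and 0.356 and 0.563 in the contractile cluster led by Csrp2 and Sh3bgr. Complement-like and chondrocyte-like cells held 0.018 or less in both. The Itih4-like level was lower in Trf2T188A/ApoE-/- by a log2 ratio of -0.42 (interval -0.50 to -0.34), although the share of cells with a UMI was 16.8% and 16.7%, and it stayed below 0 under 8 alternatives, from -0.81 to -0.10. At 1.5 times the resolution, however, the highest cluster was one in which 63.1% of the cells were contractile, at 1.41 and 2.04 and so higher in the mutant by 0.33. The Itih4-like cluster was then at 0.712 and 0.165, below fibromyocyte-like cells at 0.872 and 0.516. Of the 5 members tested in these cells Igfbp2 was the only one past the limit, where 0.849% of genes were past it upwards and 0.498% downwards. The contractile class held 0.206 and 0.309, and none of the 5 members tested there was past the limit, where 0.128% of genes were upwards and 0.217% downwards, but 2 of its 4 clusters had a member past it.

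The contractile cells of plaque were not uniform in these genes. Igfbp2, highest in the Csrp2 cluster, was at 0.212 or less in the other contractile clusters of both libraries. Igfbp4 was lowest in the Csrp2 cluster, at 0.560 and 0.929, at 1.80 and 2.03 in the Sparcl1 cluster, at 1.97 and 1.63 in the Mylk4 cluster and highest in the Sncg cluster. Igfbp5 ran from 0.253 and 0.264 in the Csrp2 cluster to 1.17 and 1.01 in the Sparcl1 cluster and 3.70 and 4.23 in the Sncg cluster. Between genotypes Igfbp4 was past the limit upwards in the Csrp2 cluster (log2 ratio 0.31), where 0.203% of genes were upwards and 0.328% downwards. In the Sparcl1 cluster Igf1r was past it downwards (2.39 and 1.80, -0.28), where 0.543% were upwards and 0.724% downwards. None of the members tested was in the Mylk4 cluster, where 0.642% and 0.623% were, or in the Sncg cluster, where 5.9% and 4.8% were. The immediate early cells held Igfbp5 at 1.03 in ApoE-/- and 0.586 in Trf2T188A/ApoE-/-, and Igf1r at 3.32 and 2.35, both past the limit downwards, where 2.08% of genes were upwards and 2.37% downwards. In Dmd Nav2-like cells 0 of 4 members were, where 3.74% and 4.18% were.

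Igfbp7 was the most widespread of the binding proteins, and its level followed the state. In ligation it was at 111.8 in control and 131.7 in Trf2T188A remodelling cells, against 68.1 and 81.4 in contractile and 64.2 and 78.4 in de-differentiated cells. In plaque the Itih4-like cells were highest, at 66.2 in ApoE-/- and 71.7 in Trf2T188A/ApoE-/-, and the chondrocyte-like cells lowest among the smooth muscle states, at 19.9 and 31.3. Endothelial-like cells held 6.102 and 11.6 and myeloid-like cells 8.05 and 8.03. Those values were 7.11% to 11.8% of the level in the smooth muscle classes, while Acta2 and Myh11, contractile genes that these cell types should lack, stood at 7.98% to 13.1% and at 3.76% to 11.99% there. The part of free RNA in these Igfbp7 values was not tested.

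Igfbp7 was also higher in the mutant library in nearly every cluster, by small amounts. It was higher in 11 of 11 plaque clusters compared, with the interval above 0 in 9, and the log2 ratios ran from 0.01 to 0.63 with a median of 0.13. In ligation it was higher in 5 of 6 clusters, from -0.003 to 0.83 with a median of 0.24. The largest smooth muscle difference was in chondrocyte-like cells, a log2 ratio of 0.63 (interval 0.57 to 0.69), and the ratio in Adamtsl1-like cells was 0.45. The ratio was 0.28 in de-differentiated, 0.25 in contractile and 0.23 in remodelling cells of the ligated artery. The value of 0.83 in endothelial-like cells went with Acta2 at 13.3 in control and 23.3 in Trf2T188A. In contractile cells of the ligation Igfbp7 was the only one of 5 members past the limit, where 0.793% of genes were past it upwards and 0.18% downwards, and Igfbp4 was just inside, at 2.07 and 2.65.

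**Figure D3:**
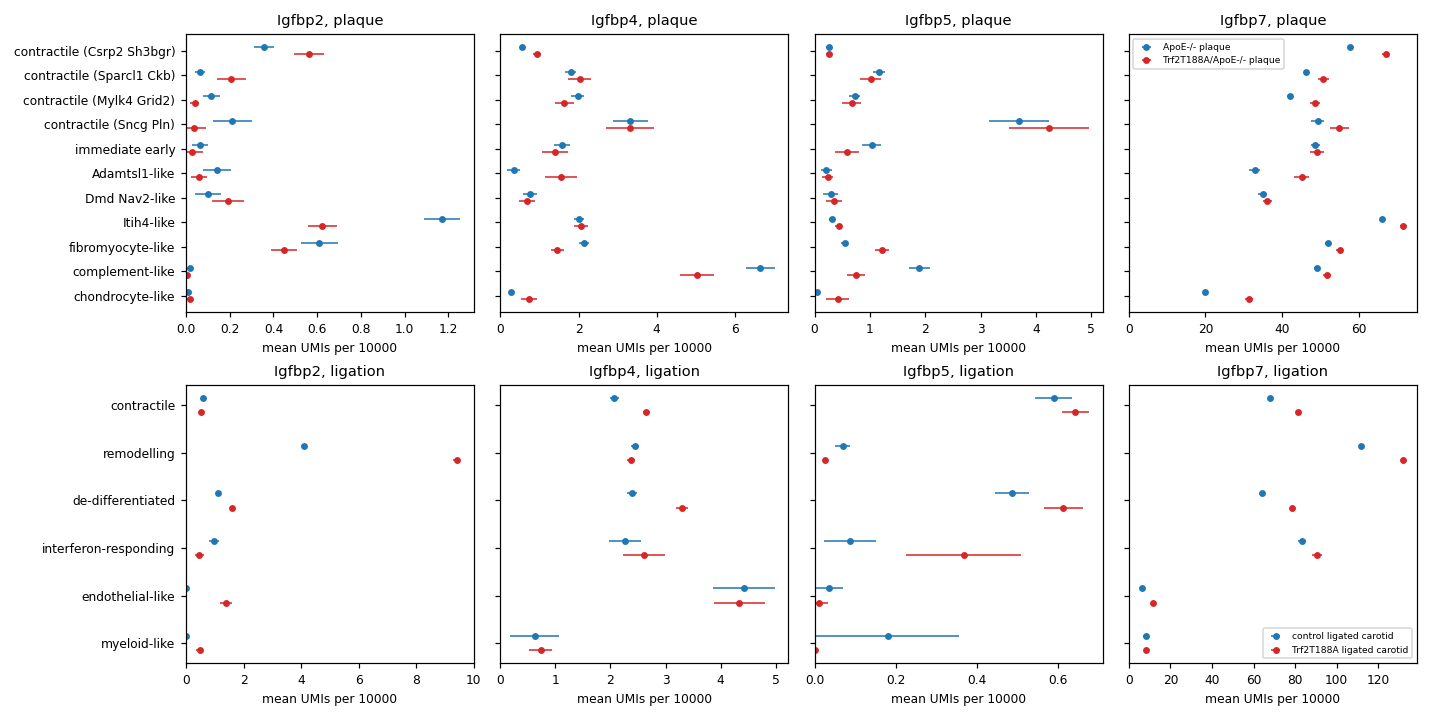
Mean level (UMIs per 10000) of Igfbp2, Igfbp4, Igfbp5 and Igfbp7 in each cluster and library, control (ApoE-/- in plaque) in blue and Trf2T188A in red, with bars for the 95% counting interval. Igfbp7 was higher in red in 11 of 11 plaque clusters compared, whereas Igfbp2 differed most in remodelling cells of the ligated carotid.

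Igfbp4, which inhibits IGF action and is cut by the protease PAPP-A, was the binding protein of the complement-like cells. It was at 6.65 there in ApoE-/- and at 5.02 in Trf2T188A/ApoE-/-, against 1.87 and 1.49 in the other cells of each library. The contractile cluster led by Sncg and Pln held 3.33 and 3.31, and chondrocyte-like cells 0.280 and 0.738. Its level was lower in the mutant in complement-like cells, by a log2 ratio of -0.35, and in fibromyocyte-like cells (2.14 and 1.46, also -0.35). It was higher in Adamtsl1-like cells, at 0.341 and 1.54, a log2 ratio of 0.92 (interval 0.63 to 1.22) from 43 and 53 cells, and in chondrocyte-like cells by 0.44. The former ran from 0.33 without the cells of highest doublet score to 1.90 with a pseudocount of 0.1, and was 0.50 at 1.5 times the resolution. In ligation Igfbp4 was even across the smooth muscle states (2.07 to 3.30), higher in de-differentiated cells of the mutant by 0.34, and highest in endothelial-like cells, at 4.43 and 4.34.

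Igfbp5, which binds to extracellular matrix, and Igfbp6, which prefers IGF2, were low in most smooth muscle states. Igfbp5 was at 3.70 in ApoE-/- and 4.23 in Trf2T188A/ApoE-/- in the contractile cluster led by Sncg and Pln, against 0.813 and 0.635 in the other cells of each library. In complement-like cells it was lower in the mutant, at 1.89 and 0.753 (log2 ratio -0.72). In fibromyocyte-like cells it was at 0.545 and 1.22, a ratio of 0.52 that turned to -0.04 at 0.5 times the resolution. In chondrocyte-like cells it was higher, at 0.039 and 0.420 (0.45). After ligation Igfbp5 was at 0.590 and 0.644 in contractile cells, and at 0.069 and 0.026 in the remodelling cells in which Igfbp2 was high.

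Igfbp6 passed the detection limit in few states. In complement-like cells a UMI was found in 7 of 111 ApoE-/- and 13 of 81 Trf2T188A/ApoE-/- cells, and the level was 0.026 and 0.608, a log2 ratio of 0.65. One cell at 21.1 UMIs per 10000 was the highest of them. In the ligated artery no cluster held more than 0.025.

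The members past the limit in the plaque states can be set beside the rate over all genes. In complement-like cells 1 of 6 members tested was higher (Igfbp6) and 2 were lower (Igfbp4 and Igfbp5), where 1.55% and 1.25% of genes were. In fibromyocyte-like cells 1 of 7 was higher (Igfbp5) and 1 lower (Igfbp4), where 1.07% and 1.88% were. In chondrocyte-like cells 3 of 5 were higher (Igfbp4, Igfbp5 and Igfbp7) and 0 lower, where 3.03% and 1.96% were. In these cells the 10 genes of the adventitial fibroblast list were all higher in the mutant, their sum being 1.06 in ApoE-/- and 3.19 in Trf2T188A/ApoE-/-. The chondrocyte markers summed to 714.6 and 356.6 (2 of 11 higher), the Itih4 list to 22.9 and 60.4 (9 of 9 higher) and the complement list to 21.4 and 53.9 (10 of 11 higher). The part of these shifts in the result was not tested.

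In Adamtsl1-like cells 2 of 3 members were higher (Igfbp4 and Igfbp7) and 1 was lower (Igf1r), where 5.89% and 8.27% of genes were, and Lum and Dcn were higher there by 1.55 and 1.74 on the log2 scale. In the same cells the list of long genes (Dmd Nav2) summed to 61.1 in ApoE-/- and 36.2 in Trf2T188A/ApoE-/- (0 of 10 higher) and the Adamtsl1 list to 63.5 and 43.0, and their part in the Igf1r value was not tested. In de-differentiated cells of the ligated artery 3 of 5 members were higher (Igfbp2, Igfbp4 and Igfbp7) and 0 lower, where 1.09% and 0.532% were. The Igfbp2 ratio of 0.31 in de-differentiated cells changed sign under each of 4 other clusterings, with values from -0.14 to -0.08, and no direction is given for it. In interferon-responding cells Igfbp5 was past the limit upwards and Igfbp2 downwards, where 2.68% and 3.62% of genes were. In endothelial-like cells Igfbp2 and Igfbp7 were upwards and Igfbp3 and Igf1r downwards, where 3.58% and 4.32% were, and in myeloid-like cells Igf1 was upwards, where 9.33% were upwards and 14.6% downwards.

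**Figure D4:**
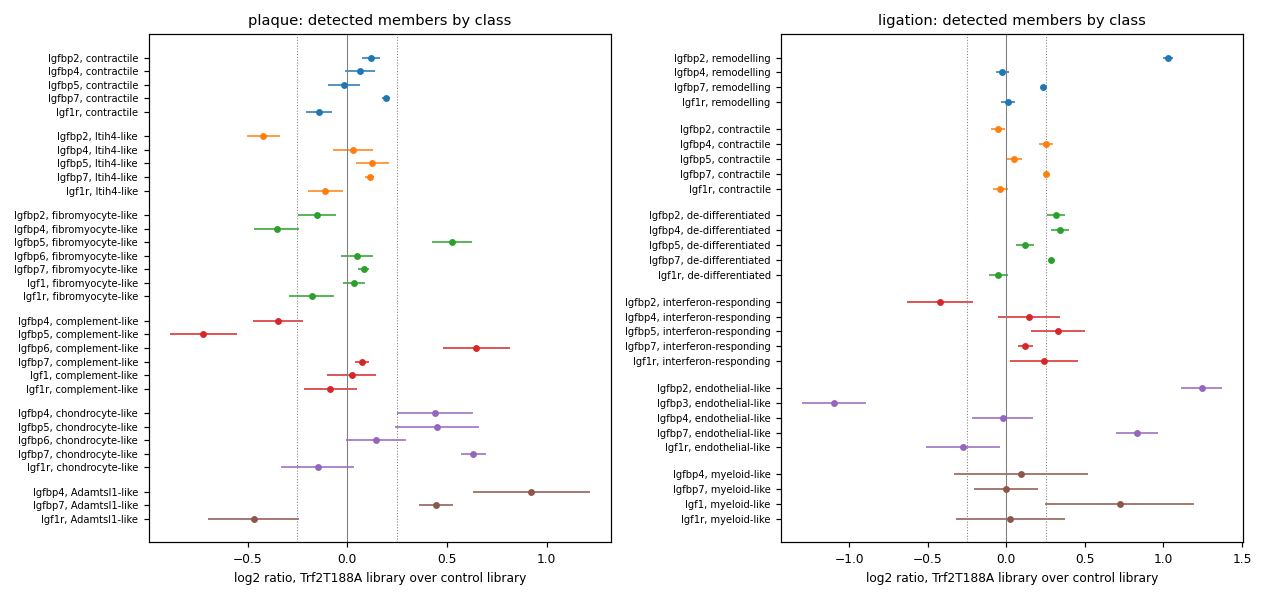
Log2 ratio (pseudocount of 1, Trf2T188A over control) of the detected members in the named classes of plaque and ligation, a colour per class, with 95% counting intervals and dotted lines at -0.25 and 0.25. Igfbp2 in remodelling cells stood at 1.03 and in Itih4-like cells at -0.42, and Igfbp7 in chondrocyte-like cells at 0.63.

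Igfbp3 and Igf1 reached their highest levels in clusters not named as VSMC states, although some fibroblast-like cells had a reporter UMI. Igfbp3, the main carrier of IGFs in plasma, was at 31.9 in the Gpx3 cluster, with a UMI in all 13 cells, and in the whole of the ApoE-/- and Trf2T188A/ApoE-/- libraries only 20 cells and 1 cell had one. Those 13 cells also held Igfbp4 at 42.5, Igfbp5 at 13.8 and Igfbp6 at 4.32, and 0 of 13 had a reporter UMI, which allows a share of cells with a UMI of up to 23.1% (3 counts of the total). A cell that carries the reporter can still lack a UMI of it. In ligation Igfbp3 was in endothelial-like cells, at 4.77 in control (20 of 62 cells) and 1.70 in Trf2T188A (15 of 65 cells), a log2 ratio of -1.10 (interval -1.30 to -0.89). It was near 0 in each smooth muscle state. The sum of the 10 endothelial markers in those cells was 62.4 in control and 55.7 in Trf2T188A.

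Igf1, the ligand, was at 4.10 in the fibroblast-like plaque cells of ApoE-/- (14 of 21 cells), where 8 of 21 cells had a reporter UMI. Complement-like cells had an Igf1 UMI in 25.2% of ApoE-/- and 27.2% of Trf2T188A/ApoE-/- cells, at levels of 0.294 and 0.315. In ligation it was found in myeloid-like cells, at 1.41 in control (7 of 20 cells) and 2.98 in Trf2T188A (30 of 58 cells), and at 0.095 or less in each of the other clusters. By summed level the picture was broader. Myeloid-like cells held 20.5% of it in control and 49.3% in Trf2T188A, and remodelling cells 39.3% and 18.1%. In plaque the fibroblast-like cells and the Gpx3 cluster held 56.1% in ApoE-/-, and in Trf2T188A/ApoE-/-, with 1 such cell, the complement-like cells held most, 36.8%.

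Igf1r, the receptor, spans 281 kb of chromosome 7 and was read in every smooth muscle state. It was highest in the Dmd Nav2-like cells, at 5.32 in ApoE-/- and 5.44 in Trf2T188A/ApoE-/-, against 2.32 and 1.90 in the other cells of each library. Its leading genes included Nav2, Slit3 and Dmd, which are long, and its cells were shallow, with a median of 10155 and 8149 UMIs. Chondrocyte-like cells were lowest, at 1.24 and 1.02. In the mutant Igf1r was lower in 10 of 11 plaque clusters, with the interval below 0 in 6, and the log2 ratios ran from -0.47 in Adamtsl1-like cells to 0.03. In ligation its level was 1.22 to 1.63 in the smooth muscle states of both libraries, with no common direction between them.

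The other genes of the pathway were examined as a list of 23, chosen by role (ligand, receptors, proteases, adaptors and kinases). Of the 13 to 18 detected in each class, few were past the limit. In the 6 main plaque classes, 8 gene and class pairs were, and in the remodelling, contractile and de-differentiated cells of ligation 1 was, Htra3 in remodelling cells (0.894 and 1.30), where 1.47% of all genes were upwards. In chondrocyte-like cells 4 of 18 tested were past it, where 3.03% of all genes were upwards and 1.96% downwards. Htra1 (2.80 and 4.65), Htra3 and Lrp1 were higher there, and Grb10, an adaptor that restrains receptor signalling, was lower, with a log2 ratio of -0.54. HTRA1 and HTRA3 are secreted proteases, and HTRA1 is known to cut IGF binding proteins. Lrp1 was also higher in fibromyocyte-like cells (1 of 17 tested, where 1.07% of all genes were) and Pik3r1 in complement-like cells (1 of 17, 1.55%). In Adamtsl1-like cells Htra1 was higher (1 of 17, 5.89%) and Insr lower (1 of 17, 8.27%), close to the share of all genes. In the smaller clusters of plaque, Dmd Nav2-like cells had Htra3 and Grb10 higher (Grb10 at 1.36 and 1.91), 2 of 16 tested, where 3.74% of all genes were. Immediate early cells had Shc1 higher (1 of 16, 2.08%) and Irs2 and Foxo1 lower (2 of 16, 2.37%). The Sncg cluster had Shc1 higher (1 of 15, 5.9%) and Igf2r lower (1 of 15, 4.8%). In the ligated artery, endothelial-like cells had Igf2r and Htra1 lower (2 of 14, 4.32%), and myeloid-like cells had Irs2 higher (1 of 13, 9.33%). In the 6 main plaque classes and the remodelling, contractile and de-differentiated cells, the list's median was between -0.03 and 0.09. That of all genes was between -0.02 and 0.002. In the smaller clusters it was -0.11 in Sncg (all genes 0.01), -0.10 in endothelial-like (-0.01) and -0.08 in myeloid-like cells (-0.04). It was -0.06 in interferon-responding (-0.002), -0.04 in Dmd Nav2-like (-0.02) and -0.004 in immediate early cells (-0.007).

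Members were also compared cell by cell, as rank correlations within a library whose cells share depth and preparation. Igfbp2 and Igfbp7 varied together across the cells of the ligated artery, with Spearman's rho of 0.45 over 4967 control and 0.43 over 5392 Trf2T188A cells, and 0.42 in both after thinning. Within single classes it ran from 0.29 to 0.44 in control and from 0.21 to 0.43 in Trf2T188A. Igfbp5 and Igfbp7 went in opposite directions, at -0.25 and -0.27. In plaque Igfbp2 and Igfbp7 also varied together, at 0.28 in ApoE-/- and 0.30 in Trf2T188A/ApoE-/- cells, and at 0.25 in both after thinning. Igfbp4 and Igfbp5 had a weaker positive value there, 0.20 over 1502 and 0.20 over 929 cells.

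The genes whose pattern was most like each member's were ranked by the lower of the rho in the 2 libraries. Igfbp7 itself came first for Igfbp2 in ligation, followed by Fn1 (0.43 and 0.42) and Eln (0.46 and 0.41), which encode fibronectin and elastin. For Igfbp7 they were Sparc, Postn and Fn1 in ligation (0.46 to 0.52) and Postn, Aebp1 and Lgals1 in plaque (0.44 to 0.49). For Igfbp4 in plaque Sncg and Mgst1 were among them (0.29 to 0.31), and for Igfbp5 they were Tmcc3, Ogn and Gstm1 (0.20 to 0.29). For Igf1r in plaque Lpp and Dmd, both long genes, were among them.

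On the genome several members are neighbours. Igfbp2 (chr1:72824503-72852474, plus strand, GRCm38) and Igfbp5 (chr1:72857932-72874884, minus strand) face each other with 5457 bases between their ends, yet Igfbp2 was high in remodelling cells and Igfbp5 near 0. Igfbp3 (chr11:7206086-7213923, minus strand) lies 3539 bases from Igfbp1, while Igfbp7 is at chr5:77349240-77408041 on the minus strand. Given here are the 120 bases before the starts of Igfbp2 and Igfbp7, which went together in ligation and plaque, and of Igfbp4 and Igfbp5. They are from RefSeq (GRCm38.p6), 5′ to 3′ on the strand of the gene, and capitals mark GGGCGG, its reverse CCGCCC, or TATAAA.
Igfbp2 (chr1:72824360-72824479, plus strand): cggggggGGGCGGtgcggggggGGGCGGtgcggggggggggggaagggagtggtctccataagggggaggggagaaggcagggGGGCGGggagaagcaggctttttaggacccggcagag
Igfbp7 (chr5:77408046-77408165, minus strand): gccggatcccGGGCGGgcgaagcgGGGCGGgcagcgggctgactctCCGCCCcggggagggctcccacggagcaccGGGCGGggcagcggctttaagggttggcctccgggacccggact
Igfbp4 (chr11:99041124-99041243, plus strand): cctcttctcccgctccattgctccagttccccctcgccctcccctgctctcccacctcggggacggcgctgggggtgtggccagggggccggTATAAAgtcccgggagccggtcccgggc
Igfbp5 (chr1:72874866-72874985, minus strand): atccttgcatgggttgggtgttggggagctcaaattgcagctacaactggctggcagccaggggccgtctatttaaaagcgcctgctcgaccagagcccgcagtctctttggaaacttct
Igfbp2 and Igfbp7 held GGGCGG and no TATAAA in the 250 bases before their starts, Igfbp4 held TATAAA and no GGGCGG, and Igfbp5 held neither. On either strand, GGGCGG was in 32.7% and TATAAA in 12.4% of 32851 promoter windows of that length, and a match describes the letters only. A second start listed for Igfbp2 had neither motif.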

How the data were processed

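Single cells of plaque and ligated carotid arteries were profiled in 4 droplet 3' libraries, 1 per group. The authors aligned reads to GRCm38 with Cell Ranger (7.0.0 and 6.1.2 per the submitters' processing notes, which also name Seurat 3.2.1 and 4.3.0 under R 3.6.2 and 4.2.2), removed cells with few genes or a high mitochondrial share, and kept in plaque the clusters with reporter expression. In plaque their limit on genes per cell was lower for Trf2T188A/ApoE-/- than for ApoE-/-. The deposited cells held at least 1056 genes in Trf2T188A/ApoE-/- and 1531 in ApoE-/-. The part of this filter in the plaque genotype ratios was not tested. The deposited signal per gene and cell is UMIs scaled to 10000 per cell on a linear scale. Whole UMIs were recovered from it (100% of values within 0.01).

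The 2 libraries of an experiment were joined and clustered with Seurat 5.3.0 (R 4.3.3) on 2000 variable genes, without 31 IGF axis genes, with 18 or 17 principal components and a resolution of 0.9 in plaque and 0.2 in ligation. Naming a cluster took a marker list averaging a log2 ratio of 0.5 or more, with 3 of its markers at 0.5 or more and 1 among the top 10 genes. These limits were set after the clusters were seen. Members and lists were chosen with earlier results of these data known. Named were every member, pathway genes past the limit, and the 3 genes most alike by rank correlation, of which some are not reported here.

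Log2 ratios of mean levels used a pseudocount of 1. Classes needed 20 cells in both libraries. Intervals cover counting error only (delta method for ratios, Clopper-Pearson for shares), and no p-value was computed, since cells of 1 library are not replicates. No cell was removed as a doublet. An alternative dropped the top 5% by Scrublet doublet score (scanpy 1.11.5). Others were other resolutions, a pseudocount of 0.1, summed UMIs, mean log2 values, and cells thinned to 8000 UMIs in plaque (92 and 122 shallower cells left out) or 5000 in ligation (325 and 154). The Cdkn2a split at one depth and in the finer clusters was added after the data were seen. The ratio was also run on simulated counts that held counting error only. That is the error the intervals assume, so the spread between cells was not checked. Positions are from GENCODE vM21.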

Additional observations from a re-analysis of the deposited data

Results flagged for a closer look

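The difference between genotypes took opposite signs in different cell states for 3 binding proteins, and in each case the difference between the states was not tested, since each state has 1 library per genotype. Igfbp2 in the ligated artery had a log2 ratio (Trf2T188A over control) of 1.24 in endothelial-like cells, where it rested on 1 control and 8 Trf2T188A cells with a UMI, and of -0.42 in interferon-responding cells. Igfbp4 in plaque had a ratio of 0.92 in Adamtsl1-like and of -0.35 in fibromyocyte-like cells. Igfbp5 in plaque had a ratio of 0.52 in fibromyocyte-like cells, which turned to -0.04 at 0.5 times the resolution, and of -0.72 in complement-like cells.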

How the results depend on the processing

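No paired analysis was possible because each group held 1 library. Of the alternatives, 53 values of the main results stayed within their limits and 23 moved. Among the single genes 300 stayed, 153 moved, and 5 changed sign from a main value past the limit. A change of sign from a main value inside the limit was not counted apart. The cause was not tested. The Igfbp2 ratio in remodelling cells, 1.03, was 1.07 at 1.5 times the resolution, 1.18 with a pseudocount of 0.1, 1.11 from summed UMIs, 1.08 without the cells of highest doublet score and 0.34 as a difference of mean log2 values. In remodelling, contractile and de-differentiated cells 5 member and class pairs were past the limit upwards, and 3 at 0.5 times the resolution. The share of all genes past the limit is given above for each class in the main setting. It was not computed for the alternatives, so these counts support no conclusion about the members. In the 6 main plaque classes 7 such pairs were higher, and 3 by mean log2 values. There 5 pairs were lower, against 2 at 0.5 times the resolution, 8 with a pseudocount of 0.1 and 3 by mean log2 values. Pairs of a pathway gene and a class past the limit in these plaque classes numbered 8, against 36 with a pseudocount of 0.1 and 13 in thinned cells. In ligation there was 1, against 7 with a pseudocount of 0.1. Rank correlations of Igfbp2 and Igfbp7 were 0.421 in control and 0.415 in Trf2T188A thinned cells, and 0.293 and 0.207 in the lowest class. Those of Igfbp4 and Igfbp5 were 0.181 in ApoE-/- and 0.184 in Trf2T188A/ApoE-/- thinned cells, and ran within classes from 0.083 to 0.217 and from 0.115 to 0.244. The Igfbp2 ratio in de-differentiated cells changed sign, to -0.096 with IGF genes among the variable genes, -0.076 at 0.5 and -0.135 at 1.5 times the resolution, and -0.110 without the cells of highest doublet score. The Igfbp5 ratio in fibromyocyte-like cells was -0.039 at 0.5 times the resolution. At that lower resolution the complement-like cells of plaque and the contractile cells of ligation formed no cluster and gave no value.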
